A study of Mus musculus with 4 samples.

Results

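The collagen genes of the mouse hippocampus were examined in single nuclei. They were taken as every gene whose symbol is Col, a number, a and a number, kept with at least 50 UMIs (unique molecular identifiers, each 1 counted transcript) over the 4 libraries in nuclei with at least 500 genes. All 44 genes with such a name met this limit, of 32285 genes in the matrices. Nuclei came from the hippocampi of both hemispheres of 2 wild-type (WT) mice and 2 Cyfip2+/R87C knock-in (KI) mice, all at postnatal week 28 and on a C57BL/6N background, with 1 library for each mouse. The KI mice carry 1 copy of an arginine-to-cysteine change in Cyfip2 in every cell of the body, as a model of an infantile epilepsy, and the WT mice carry none. The treatment label of KI replicate 2 reads R88C where its protocol reads R87C, so its genotype label was used to place it with KI. The labels do not give the sex of each mouse.

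Collagens are secreted or membrane-bound proteins of 3 chains wound into a triple helix. Fibrillar chains build banded fibrils, FACIT chains sit on the surface of such fibrils, type IV chains form the sheet of basement membranes around vessels and under the pia, and type VI chains form beaded microfibrils. Transmembrane collagens span the cell membrane and can be shed, and multiplexins belong to the basement membrane zone. In the brain, fibroblasts of the meninges and vessels and the cells of the vessel wall are the known makers of most of these chains, whereas some chains are known in neurons, such as Col25a1 and Col19a1.

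After filtering, 52032 nuclei remained, 11932 to 14927 in each library, with a median of 3868 to 4699 UMIs, and 157530 of their UMIs belonged to collagen genes. Marker genes placed nuclei in cell classes, while 11945 nuclei stayed without a class, 16.4% to 34.2% of a library. Pairs of libraries shared 40 to 67 barcodes. The mutated gene itself, Cyfip2, stood at 182 and 180 CPM (the UMIs of a gene in the summed nuclei, scaled to the same total for every sum) in WT and at 172 and 171 CPM in KI, and these counts do not tell the alleles apart. Malat1, a transcript kept in the nucleus, took 8.90% and 8.71% of all UMIs in WT and 13.7% and 12.2% in KI, so this measure of RNA content moved with genotype, and its part in the results below was not tested. The dentate gyrus (DG) granule neurons lay in 2 clusters that split by genotype. Cluster 0 held 4047 and 3071 nuclei of WT replicates 1 and 2 but 217 and 583 of KI replicates 1 and 2, and cluster 3 held 261 and 223 against 2260 and 1645.

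The first question was which cells hold collagen transcripts. The 44 genes together reached 3050 and 3060 CPM in fibroblasts of WT and 2491 and 2544 CPM in those of KI. Mural cells (pericytes and smooth muscle) ranged from 1019 to 3283 CPM, inhibitory neurons from 1379 to 1840 CPM within that range, and oligodendrocytes lay lowest at 199 to 222 CPM. Fibroblasts were few, 67 to 122 nuclei in a library, so that they held 0.972% to 1.89% of all collagen UMIs, while inhibitory neurons held 25.4% to 29.4%. DG granule neurons held 20.8% and 21.3% in WT and 9.78% and 8.27% in KI, beside a share of nuclei of 28.9% and 26.6% in WT and 20.8% and 17.4% in KI.

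Among the 14 classes with at least 20 nuclei in every library, 17 of the 44 genes had their highest mean level in fibroblasts and 8 in mural cells. Committed oligodendrocyte precursors (COPs) led for 5 genes, inhibitory neurons and oligodendrocyte precursor cells (OPCs) for 4 each, Cajal-Retzius cells for 3, microglia for 2 and oligodendrocytes for 1. A non-neuronal class was thus highest for 37 of 44 genes. However, 10 of the 44 stayed under 10 CPM in their highest class, where few UMIs of a small class can set the order. Col28a1, for example, had 33.5 CPM in mural cells of WT replicate 2 and 0 CPM in those of the other libraries. The 4 libraries of the highest class did not overlap those of the next class for 11 genes. None of these counts was made over all genes, so they do not set collagen genes apart from others. Levels here are CPM of the class sum and are not divided by transcript length, so they order the classes of 1 gene and not the genes. Classes came from clusters, hence these orders are a description with no test.

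**Figure D1:**
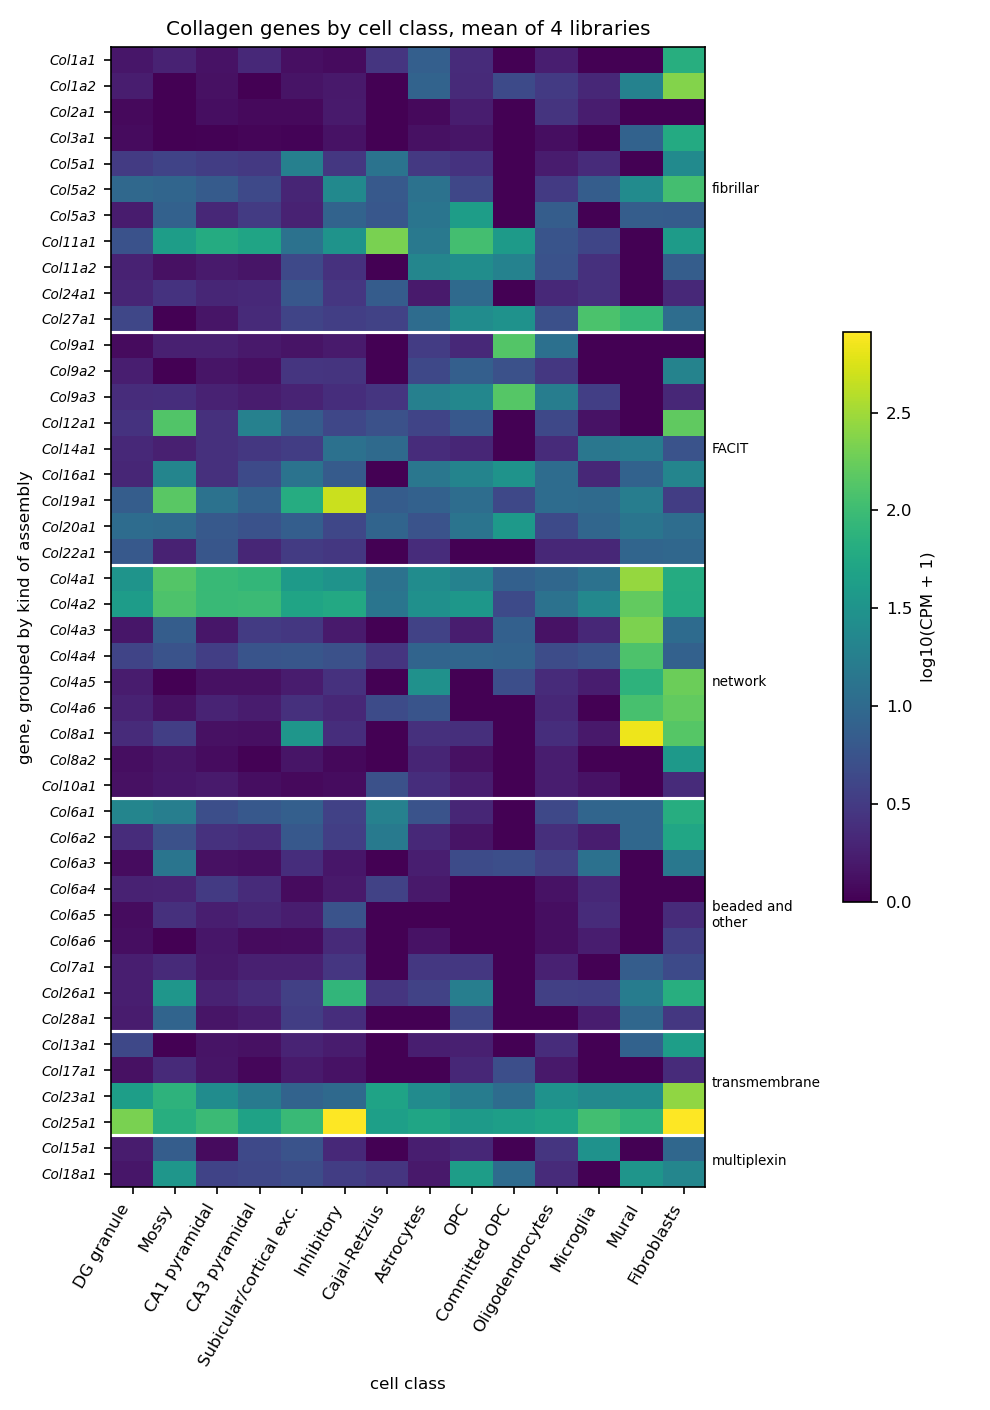
Level of each of the 44 collagen genes (rows, grouped by kind of assembly) in each of 14 cell classes (columns), as log10(CPM + 1) of the mean of 4 libraries. The brightest cells are Col25a1 in inhibitory neurons (815 CPM) and fibroblasts (808 CPM) and Col8a1 in mural cells (693 CPM, of which 1 library gave most).

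The fibrillar chains of type I, the main collagen of connective tissue, marked fibroblasts. Col1a2 (chromosome 6, 4504814 to 4541544, GRCm38) had 206 and 266 CPM in fibroblasts of WT replicates 1 and 2 and 215 and 250 CPM in those of KI replicates 1 and 2, 12.6 times the mean of the next class. Its partner chain Col1a1 had 71.3, 60.6, 25.6 and 107 CPM in the same libraries. Both chains were thus found in all 4 libraries and neither overlapped its next class. Col5a2, a chain of the type V collagen that sets fibril width, had 71.3 and 112 CPM in WT fibroblasts and 148 and 107 CPM in KI fibroblasts.

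Other fibrillar genes led outside fibroblasts. Col11a1, a type XI chain, was highest in Cajal-Retzius cells with 282, 110, 313 and 142 CPM, which overlapped the OPCs at a mean of 109 CPM. Col27a1, a fibrillar collagen known from cartilage, was highest in microglia at 102 and 145 (WT) against 123 and 109 CPM (KI). Mural cells overlapped them with a mean of 88.0 CPM. Among the FACIT genes, Col9a1 and Col9a3, chains of type IX, led in COPs at means of 133 and 137 CPM, against 10.9 and 21.5 CPM in the next class. Single libraries gave 104, 169, 114 and 144 CPM for Col9a1 and 147, 169, 57.0 and 176 CPM for Col9a3. These values rest on 4 to 17 UMIs in a library. Col12a1 was highest in fibroblasts at 143, 168, 107 and 219 CPM. The class called mossy cells here, after cells of the dentate hilus, overlapped them with a mean of 132 CPM. That class had 4 of 5 mossy cell markers raised but also 83.3% of the CA3 markers, so its name is uncertain.

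Col19a1, a FACIT collagen known from synapse formation, was a gene of inhibitory neurons. It had 528 and 497 CPM there in WT and 514 and 388 CPM in KI, 3.34 times the mean of mossy cells, and the libraries of these classes did not overlap. Within inhibitory neurons, nuclei with the highest score for Sst markers had 835, 645, 885 and 541 CPM, whereas those with Pvalb markers had 358, 304, 235 and 226 CPM. The transmembrane collagen Col25a1, known to bind amyloid and to act in motor nerve growth, had 1018 and 698 CPM in inhibitory neurons of WT and 894 and 649 CPM in those of KI. Its order among the subtypes was another one, with means of 1152 CPM in Lamp5 nuclei, 1027 CPM in Vip nuclei, 443 CPM in Sst nuclei and 328 CPM in Pvalb nuclei.

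Col25a1 overlapped this range in fibroblasts, with 824 and 1171 (WT) against 670 and 567 CPM (KI), and there its level differed between the fibroblast clusters. The cluster led by Slc47a1 stood at 1570 and 1931 (WT) against 1410 and 969 CPM (KI), and the cluster led by Slc6a13 had 128, 11.1, 79.1 and 66.6 CPM. Col4a5 and Col4a6, type IV chains that lie head to head on the X chromosome, led in fibroblasts at means of 180 and 163 CPM. They had the reverse order, with means of 330 and 320 CPM in the Slc6a13 cluster and under 40 CPM in the Slc47a1 cluster. Over the whole class, Col4a5 had 206, 121, 225 and 170 CPM and Col4a6 had 198, 159, 215 and 80.4 CPM. The transmembrane Col23a1 had 364 and 233 CPM in fibroblasts of WT and 230 and 246 CPM in those of KI, 3.60 times its mean in mossy cells, with no overlap. Collagen genes were left out of the genes used for clustering.

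Among the classes ranked, the other type IV chains led in mural cells. Endothelial cells, with 14 to 36 nuclei in a library, were too few to be ranked. Their Col4a1 and Col4a2 levels, given at the end, overlapped those of mural cells. Col4a1 had 175 and 101 CPM in mural cells of WT and 546 and 316 CPM in those of KI, and Col4a2 had 233, 67.0, 347 and 0 CPM. Col4a3, a chain known from the kidney glomerulus, stood at 58.2 and 67.0 (WT) against 372 and 379 CPM (KI), and its neighbour Col4a4 had 58.2, 101, 273 and 63.1 CPM. These values rest on 20 to 30 nuclei and at most 22 UMIs in a library. Only Col4a1 and Col4a3 were high enough for a test in this class, and both had an adjusted p of 0.414 (unadjusted 0.0105 and 0.00109 by edgeR). Col8a1, a short-chain collagen of vessel walls, had 116, 2446, 149 and 63.1 CPM, so that WT replicate 2 alone, with 73 UMIs, set its mean. In neurons Col4a1 and Col4a2 were broadly present. Their means were 136 and 123 CPM in the class called mossy cells and 91.6 and 93.4 CPM in CA1 pyramidal neurons.

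Col4a1 and Col4a2 code for the chains of the same type IV molecule and start from opposite strands of 1 stretch of chromosome 8, with first bases 21 bases apart. Their promoter windows (250 bases before to 50 bases after the start, RefSeq, GRCm38.p6) share 78 bases and are shown because both genes passed the test in CA1 pyramidal neurons below. The window of Col6a1, with the largest fold change among the 8 collagen genes called in DG granule neurons, is shown beside them. Capitals mark CCAAT boxes (CCAAT), GC boxes (GGGCGG) and AP-1 sites (TGANTCA) on either strand, and cAMP response elements (TGACGTCA) were searched as well.
Col4a1, chr8:11312777-11313076, minus strand: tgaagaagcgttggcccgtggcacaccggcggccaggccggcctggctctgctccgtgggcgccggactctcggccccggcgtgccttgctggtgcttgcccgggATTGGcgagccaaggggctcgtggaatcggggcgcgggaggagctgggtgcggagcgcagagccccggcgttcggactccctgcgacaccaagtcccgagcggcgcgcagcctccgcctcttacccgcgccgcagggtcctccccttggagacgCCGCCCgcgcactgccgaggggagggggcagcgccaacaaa
Col4a2, chr8:11312555-11312854, plus strand: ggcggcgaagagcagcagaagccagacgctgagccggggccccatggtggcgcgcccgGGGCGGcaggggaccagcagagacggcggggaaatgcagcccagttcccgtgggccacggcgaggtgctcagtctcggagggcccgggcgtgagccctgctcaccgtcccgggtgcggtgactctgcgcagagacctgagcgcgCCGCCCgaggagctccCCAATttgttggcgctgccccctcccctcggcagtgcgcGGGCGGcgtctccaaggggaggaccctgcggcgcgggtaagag
Col6a1, chr10:76725995-76726294, minus strand: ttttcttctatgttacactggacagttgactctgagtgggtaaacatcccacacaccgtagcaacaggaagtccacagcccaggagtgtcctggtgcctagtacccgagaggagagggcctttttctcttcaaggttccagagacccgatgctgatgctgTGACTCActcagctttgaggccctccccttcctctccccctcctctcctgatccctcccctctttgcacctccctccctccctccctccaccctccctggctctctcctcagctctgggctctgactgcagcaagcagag

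The Col4a1 window held 1 CCAAT box and 1 GC box and the Col4a2 window 1 CCAAT box and 3 GC boxes, with a GC content of 74.0% and 73.7%. The Col6a1 window, with 57.3% GC, held neither and had 1 AP-1 site, which starts 90 bases before the RefSeq start. That start lies 124 bases inside the gene as GENCODE gives it, so the site falls within the GENCODE gene. None of the 3 windows held a cAMP response element. Of 32817 promoter windows of the same length, 37.4% held a CCAAT box, 35.6% a GC box, 7.81% an AP-1 site and 1.79% a cAMP response element. Among the 38 windows found for 35 of the 44 collagen genes, 34.2%, 60.5%, 2.63% and 2.63% did. A match is a match of letters and was not tested for binding.

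The second question was whether collagen transcripts differed between KI and WT. Over all nuclei, 2 of 44 collagen genes, both higher in KI, fell below an adjusted p (Benjamini-Hochberg, edgeR quasi-likelihood) of 0.05, against 0.889% of all 21718 genes tested (0.506% higher and 0.382% lower). Col18a1, the multiplexin that gives rise to endostatin, stood at 1.78 and 1.46 (WT) against 5.35 and 5.19 CPM (KI), giving a log2 ratio (log2 fold change, KI over WT) of 1.75 ± 0.21 (SE) at adjusted p 0.0366. Col4a2 stood at 53.2 and 53.9 (WT) against 80.2 and 84.9 CPM (KI), giving a log2 ratio of 0.68 ± 0.08 (SE) at adjusted p 0.0375. The KI libraries lay above both WT libraries for either gene. Its partner Col4a1 stood at 40.6 and 42.0 (WT) against 80.9 and 65.9 CPM (KI), with no overlap but an adjusted p of 0.0561. An unadjusted p under 0.05 was met by 16 of the 44 genes (36.4%), against 24.3% of all genes. The count is sensitive to single libraries. It was 1 without WT replicate 1 and 0 without WT replicate 2, where 0.567% and 1.15% of all genes passed. Leaving out KI replicate 1 gave 6 and leaving out KI replicate 2 gave 11, beside 4.91% and 32.4% of all genes, and DESeq2 called 8, with 9.53% of all genes.

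The median log2 fold change of the 44 genes over all nuclei was 0.22, against 0.01 over all genes. A sum over all nuclei mixes changes within a class with the number of nuclei of each class, so classes were tested one by one. In 5 of the 14 classes tested, 15 of the 44 collagen genes passed in 21 gene and class pairs. That is 39.5% of the 38 that were tested in a class at all, against 15.7% of the 17949 genes tested in a class. These were 4 of 11 fibrillar genes, 3 of 9 FACIT genes, 2 of 9 network genes, 2 of 9 genes of type VI and other kinds, 2 of 4 transmembrane genes and both multiplexins. Those 15 genes and their values in single libraries are plotted by class.

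**Figure D2:**
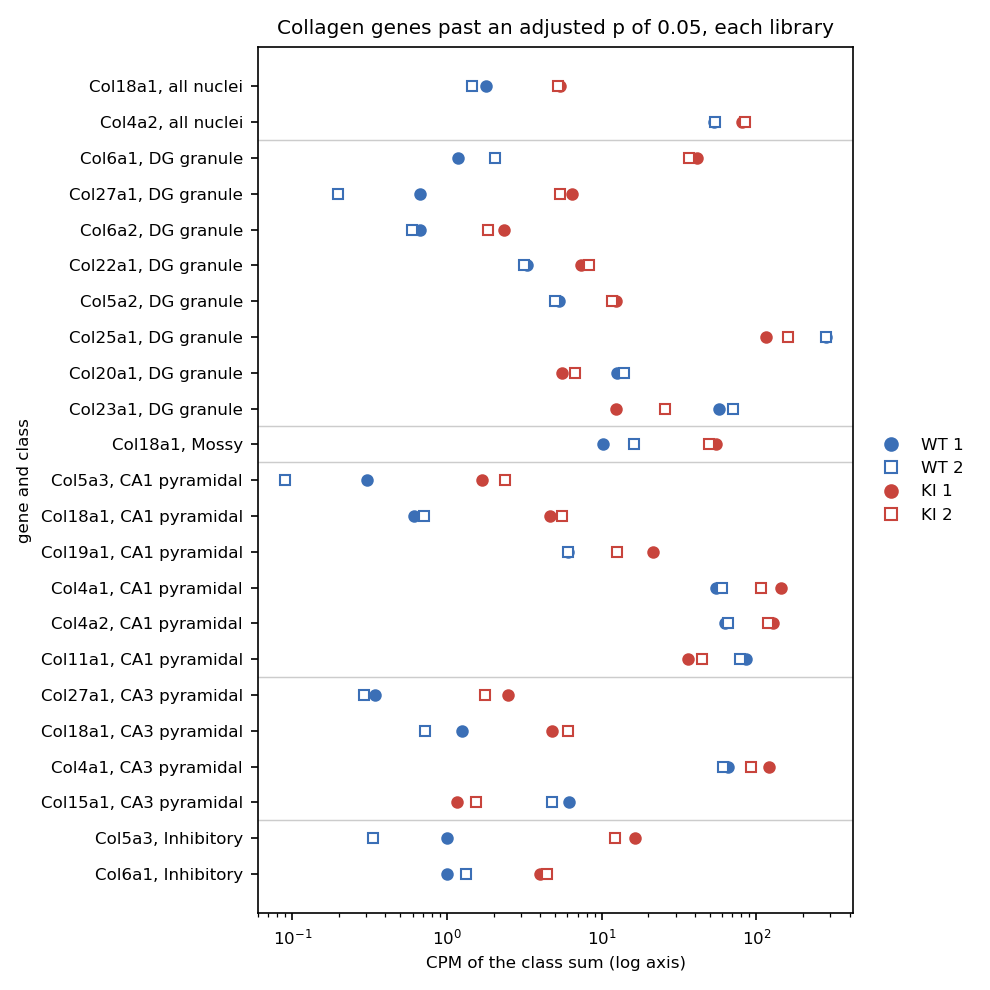
CPM of the class sum (log axis) for each collagen gene past an adjusted p of 0.05, over all nuclei or in a class, in WT replicates 1 and 2 (blue) and KI replicates 1 and 2 (red). In every row the KI points lie on 1 side of the WT points, with the widest gap for Col6a1 in DG granule neurons (1.17 and 2.03 CPM in WT, 41.0 and 36.4 CPM in KI).

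In DG granule neurons, the main excitatory cells of the dentate gyrus, 8 of 29 tested collagen genes passed, 5 higher and 3 lower in KI, against 9.74% of the 16382 genes tested (4.82% higher and 4.91% lower). The median log2 fold change of the 29 genes was 0.32, against -0.00 over all genes. Col6a1, a chain of the type VI microfibrils, had the largest fold change of the 8. Col6a1 (chromosome 10, 76708792 to 76726168) stood at 1.17 and 2.03 (WT) against 41.0 and 36.4 CPM (KI), from 21, 31, 492 and 354 UMIs. Its log2 fold change was 4.75 (SE 0.25, adjusted p 0.00130). Col6a2, which joins Col6a1 and Col6a3 in type VI microfibrils, stood at 0.667 and 0.590 (WT) against 2.34 and 1.85 CPM (KI), giving a log2 ratio of 1.86 ± 0.37 (SE) at adjusted p 0.0310. The call of Col6a2 was lost with DESeq2 (adjusted p 0.0927) and under the gate per nucleus (0.0532). The partner chain Col6a3 stood at 0.0655 to 0.445 CPM and was too low to be tested.

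Col6a1 was seen in many KI nuclei. At least 1 UMI was found in 17.1% (exact 95% interval 15.7 to 18.7) and 13.9% (12.5 to 15.4) of DG granule nuclei of KI replicates 1 and 2, at a median of 4408 and 3983 UMIs. WT replicates 1 and 2 gave 0.487% (0.302 to 0.744) and 0.911% (0.615 to 1.30), and intervals cover counting error only. With every nucleus thinned to 1500 UMIs the shares were 0.164% and 0.214% in WT and 5.96% and 6.56% in KI. Nuclei deep enough for thinning numbered 4258 and 3264 (WT) and 2467 and 2196 (KI). Oligodendrocytes of the same KI libraries, which could show RNA that is free in the droplets, had 0.709% and 1.06% at a median of 1461 and 1344 UMIs, and 0.403% and 0.312% in the 993 and 320 nuclei left after thinning. The share in KI DG granule nuclei was above that of these oligodendrocytes, and the part of free RNA was not tested.

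A FACIT gene and 2 fibrillar genes rose as well. Col27a1 stood at 0.667 and 0.197 (WT) against 6.42 and 5.34 CPM (KI), from 12, 3, 77 and 52 UMIs, giving a log2 ratio of 3.83 ± 0.46 (SE) at adjusted p 0.00744. Col5a2 stood at 5.28 and 4.98 (WT) against 12.3 and 11.7 CPM (KI), giving a log2 ratio of 1.36 ± 0.18 (SE) at adjusted p 0.00912. Col22a1, a FACIT collagen known from tissue junctions, stood at 3.28 and 3.15 (WT) against 7.34 and 8.33 CPM (KI), giving a log2 ratio of 1.41 ± 0.21 (SE) at adjusted p 0.0132. In these 3 genes the lower KI library was at least as far from the higher WT library as the libraries of 1 genotype were from each other.

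The genes that fell were 2 of the 4 transmembrane collagens and a FACIT gene. Col25a1, the most counted collagen gene in this class, stood at 283 and 280 (WT) against 115 and 161 CPM (KI), giving a log2 ratio of -0.90 ± 0.14 (SE) at adjusted p 0.0164. Col23a1 stood at 56.9 and 70.6 (WT) against 12.4 and 25.8 CPM (KI), giving a log2 ratio of -1.62 ± 0.30 (SE) at adjusted p 0.0243. The KI libraries differed from each other in this gene but both lay below WT. Col20a1, a FACIT collagen, stood at 12.6 and 13.9 (WT) against 5.51 and 6.68 CPM (KI), giving a log2 ratio of -0.99 ± 0.18 (SE) at adjusted p 0.0243. Without WT replicate 1, and likewise without WT replicate 2, Col6a1 and Col27a1 still passed while the other 6 genes did not, with their direction kept, and 1.26% and 1.19% of all genes passed.

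The 2 clusters of DG granule neurons were compared library by library, with no test, because they split by genotype. Col6a1 stood at 0.888 and 1.83 (WT) against 6.01 and 10.4 CPM (KI) in cluster 0, and 5.49 and 4.80 (WT) against 44.2 and 45.4 CPM (KI) in cluster 3. It was thus higher in both KI libraries within either cluster. Col27a1 reached 7.01 and 6.78 CPM in KI in cluster 3, where both WT libraries were at 0. In cluster 0 it had 0 and 1.20 CPM in KI. All WT UMIs of this gene in the class thus lay in cluster 0, where KI replicate 1 stood below both WT libraries. Col23a1 was lower in cluster 3 in every library, with 17.4 and 19.2 (WT) against 9.65 and 12.2 CPM (KI), against 59.5, 74.3, 43.1 and 65.3 CPM in cluster 0, where the genotypes overlapped. Col25a1 stood at 287 and 288 (WT) against 109 and 205 CPM (KI) in cluster 0 and 218, 176, 116 and 146 CPM in cluster 3.

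**Figure D3:**
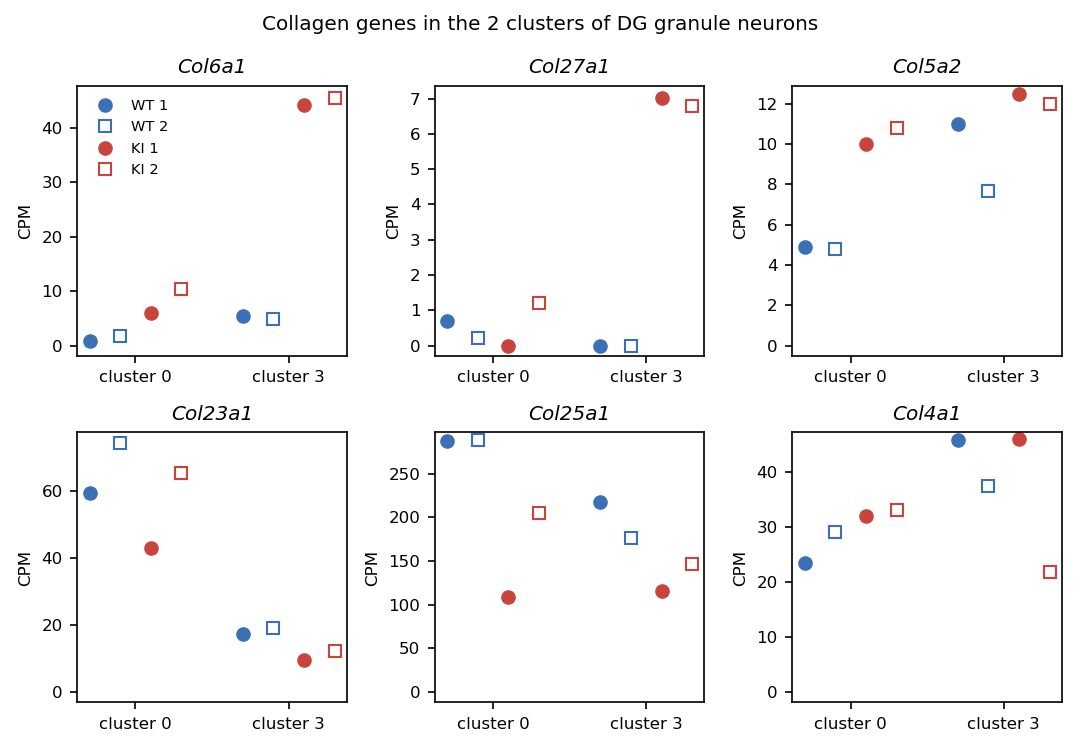
CPM of 6 collagen genes in clusters 0 and 3 of the DG granule neurons, 1 point for each library (WT blue, KI red, replicate 1 filled, replicate 2 open). Col6a1 is higher in KI than in WT within both clusters, while Col23a1 differs mostly between the clusters.

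Markers of this class and of other cells were read beside these genes. Of 18 lists, 2 summed higher and 9 lower in both KI libraries. Among the latter was the DG granule list itself, at 2817 to 2947 CPM in WT and 2309 to 2745 CPM in KI. The 7 astrocyte markers summed to 899 to 937 CPM in WT and 388 to 618 CPM in KI. Of these, 5 of 7 were lower in both KI libraries and none was at 0. Slc4a4 of this list is among the 10 leading genes of cluster 0, so the sum does not stand for astrocyte RNA alone. The 5 mossy cell markers summed to 60.9 to 67.3 CPM and 31.5 to 39.2 CPM, with 3 of 5 lower and 1 higher. The part of these markers in the result was not tested. The 7 fibroblast markers summed to 28.8 to 34.5 CPM in WT and 25.6 to 27.7 CPM in KI, and the 8 mural markers to 9.67 to 10.3 CPM and 9.56 to 10.3 CPM.

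In CA1 pyramidal neurons, 6 of 23 tested collagen genes passed, 5 higher and 1 lower, against 7.64% of 16058 genes (4.78% higher and 2.86% lower). Both chains of the common type IV molecule rose. Col4a1 (chromosome 8, 11198423 to 11312826) stood at 54.5 and 60.3 (WT) against 145 and 107 CPM (KI), giving a log2 ratio of 1.23 ± 0.18 (SE) at adjusted p 0.0131. Col4a2 (chromosome 8, 11312805 to 11449287) stood at 63.0 and 65.0 (WT) against 127 and 119 CPM (KI), giving a log2 ratio of 1.04 ± 0.11 (SE) at adjusted p 0.00454. These are the genes whose shared promoter stretch is printed above. At least 1 UMI of Col4a1 was found in 24.6% and 30.5% of CA1 nuclei in WT and in 58.9% and 44.3% in KI, or, after thinning, in 8.22% and 8.70% against 19.7% and 15.2%. Oligodendrocytes, at a lower depth, had 0.979% and 0.244% in WT and 1.94% and 1.99% in KI, or, after thinning, 1.02%, 0.334%, 1.11% and 1.56%.

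Genes of low level in CA1 neurons rose as well. Col18a1 stood at 0.613 and 0.715 (WT) against 4.64 and 5.54 CPM (KI), from 8, 8, 58 and 63 UMIs, giving a log2 ratio of 3.01 ± 0.33 (SE) at adjusted p 0.00515. Col5a3, a type V chain, stood at 0.306 and 0.0894 (WT) against 1.68 and 2.37 CPM (KI), from 4, 1, 21 and 27 UMIs, giving a log2 ratio of 3.32 ± 0.55 (SE) at adjusted p 0.0189. Both genes were near the limit of detection in WT. Col19a1 stood at 6.05 and 6.08 (WT) against 21.3 and 12.5 CPM (KI), giving a log2 ratio of 1.59 ± 0.30 (SE) at adjusted p 0.0268. Col11a1 fell, from 85.9 and 78.8 (WT) to 36.1 and 44.7 CPM (KI), giving a log2 ratio of -0.94 ± 0.12 (SE) at adjusted p 0.00842. Without KI replicate 1 the count was 11 and without KI replicate 2 it was 12, where 23.6% and 42.8% of all genes passed, and without either WT library it was 6, where 3.46% and 4.42% did. Col19a1 lost its call under the gate per nucleus, which assigns single nuclei by marker score (log2 ratio 1.03, adjusted p 0.168). The median log2 fold change of the 23 genes was 0.30, against 0.00 over all genes.

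The 8 mural markers summed to 8.40 to 8.88 CPM in WT CA1 neurons and to 11.9 to 13.3 CPM in KI, with 3 of 8 higher in both KI libraries and 2 lower. The 7 endothelial markers summed to 6.74 to 7.60 CPM and 8.63 to 11.3 CPM, with 2 of 7 higher and 1 lower, and the 6 CA3 markers to 227 to 232 CPM and 123 to 140 CPM, with 4 of 6 lower. Of 18 lists, 4 summed higher and 5 lower in both KI libraries, among the latter CA1's own at 1155 to 1181 CPM in WT and 855 to 1033 CPM in KI and the astrocyte list at 49.6 to 53.5 CPM and 30.8 to 33.2 CPM. The 7 fibroblast markers summed to 37.4 to 42.5 CPM and 48.0 to 51.9 CPM, with 2 of 7 higher. No marker of these lists was at 0, and their part in the rise of Col4a1 and Col4a2 was not tested. In mural cells themselves the mural markers summed to 3726 to 4811 CPM and Col4a1 had a mean of 284 CPM.

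**Figure D4:**
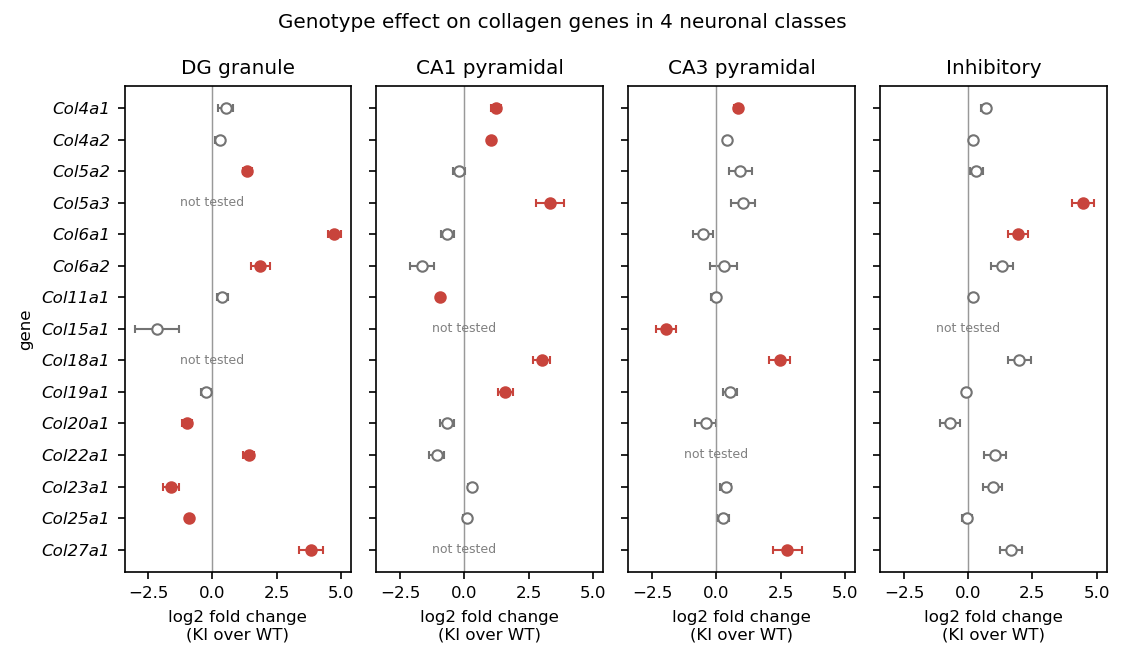
Log2 fold change (KI over WT) with its standard error for the 15 collagen genes past an adjusted p of 0.05 in a class, in DG granule, CA1 pyramidal, CA3 pyramidal and inhibitory neurons (filled red: adjusted p below 0.05, open grey: not). Col6a1 stands at 4.75 in DG granule neurons and Col5a3 at 4.48 in inhibitory neurons, and Col4a1 passes in CA1 and CA3 neurons.

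In CA3 pyramidal neurons, 4 of 21 tested collagen genes passed, 3 higher and 1 lower, against 3.01% of 14672 genes (1.93% higher and 1.08% lower), with a median of 0.37 against -0.00 over all genes. Col4a1 stood at 65.2 and 60.9 (WT) against 121 and 91.7 CPM (KI), giving a log2 ratio of 0.84 ± 0.16 (SE) at adjusted p 0.0396. Col18a1 stood at 1.25 and 0.723 (WT) against 4.80 and 6.02 CPM (KI), giving a log2 ratio of 2.46 ± 0.40 (SE) at adjusted p 0.0250. These genes had also passed in CA1 neurons. Col27a1 stood at 0.341 and 0.289 (WT) against 2.47 and 1.75 CPM (KI), from 3, 2, 17 and 9 UMIs, giving a log2 ratio of 2.77 ± 0.56 (SE) at adjusted p 0.0425. Col15a1, the other multiplexin, fell from 6.14 and 4.77 (WT) to 1.16 and 1.55 CPM (KI), giving a log2 ratio of -1.95 ± 0.38 (SE) at adjusted p 0.0379. The count was 1 without WT replicate 1 or without WT replicate 2, where 1.12% and 1.70% of all genes passed, and 13 without KI replicate 2, where 33.5% did. DESeq2 called neither Col27a1 (adjusted p 0.189) nor Col15a1 (0.0937), and under the gate per nucleus Col27a1 (0.0687), Col15a1 (0.0875) and Col4a1 (0.0525) missed the threshold, as did Col15a1 without doublet removal (0.0551).

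In CA3 neurons, 2 of 18 marker lists summed higher and 5 lower in both KI libraries. Among the latter was the class's own, at 2335 to 2544 CPM in WT and 2056 to 2324 CPM in KI. The 6 DG granule markers stood at 112 to 130 CPM in WT and 68.2 to 88.0 CPM in KI, and the astrocyte list at 68.4 to 79.0 CPM and 38.6 to 56.1 CPM. The 7 endothelial markers summed to 7.39 to 8.25 CPM in WT and, higher in both KI libraries, to at most 21.9 CPM, with 4 of 7 higher in both KI libraries and 0 lower. The 7 fibroblast markers summed to 19.5 to 22.7 CPM and 32.0 to 35.7 CPM, with 4 of 7 higher and 0 lower, and the 8 mural markers to 9.55 to 11.9 CPM and 11.8 to 16.1 CPM, where the genotypes overlapped. No marker of these lists was at 0 in every library, and their part in the values of Col4a1, Col18a1 and Col15a1 was not tested.

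In the class called mossy cells, 1 of 10 tested collagen genes passed, against 1.89% of 7038 genes (1.19% higher and 0.696% lower). This was Col18a1 again, with 10.2 and 16.2 (WT) against 54.5 and 49.7 CPM (KI), from 7, 8, 30 and 18 UMIs, giving a log2 ratio of 2.12 ± 0.43 (SE) at adjusted p 9.94e-04. It did not pass without WT replicate 1, where 0.390% of all genes did, or under the gate per nucleus (log2 ratio 1.38, adjusted p 0.257), and DESeq2 gave it no adjusted p. Of 18 marker lists, 0 were higher and 7 lower in both KI mossy cell libraries. Among the latter, the class's own stood at 358 to 412 CPM in WT and 251 to 298 CPM in KI. The astrocyte list stood at 88.9 to 97.3 CPM and 40.0 to 44.2 CPM. The CA3 list, also lower, stood at 4176 to 4319 CPM and 3447 to 4121 CPM. In CA3 pyramidal neurons the CA3 list stood lower, at 2335 to 2544 CPM in WT and 2056 to 2324 CPM in KI, so the name of the class is uncertain. The part of these lists in the result was not tested. Col18a1 was low in DG granule neurons, at 0.334 to 0.667 CPM, and was not tested there.

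In inhibitory neurons, 2 of 27 tested collagen genes passed, both higher, against 1.63% of 15173 genes (1.11% higher and 0.521% lower). Col5a3 stood at 0.995 and 0.333 (WT) against 16.3 and 12.2 CPM (KI), from 6, 2, 114 and 101 UMIs, giving a log2 ratio of 4.48 ± 0.43 (SE) at adjusted p 0.00646. Col6a1 stood at 0.995 and 1.33 (WT) against 4.00 and 4.46 CPM (KI), giving a log2 ratio of 1.95 ± 0.39 (SE) at adjusted p 0.0444. Col5a3 passed without any 1 library, and Col6a1 lost its call under 7 of 12 alternatives, among them DESeq2 (adjusted p 0.148), library totals (0.0556) and either WT library left out. The count was 1 without either WT library, where 0.161% and 0.137% of all genes passed, 7 without KI replicate 1 (8.46%) and 10 without KI replicate 2 (29.0%). Col19a1 and Col25a1, which are among the 4 genes with their highest level in this class, did not pass the test. The 8 mural markers summed to 17.9 to 19.6 CPM in WT and 21.1 to 25.4 CPM in KI, with 4 of 8 higher in both KI libraries and 1 lower, and the 7 endothelial markers to 6.30 to 7.66 CPM and 9.14 to 9.53 CPM, with 3 of 7 higher and 0 lower. Of 18 lists, 4 summed higher and 9 lower in both KI libraries, among them the class's own at 9643 to 9992 CPM in WT and 7773 to 8255 CPM in KI and the CA3 list at 1156 to 1232 CPM and 781 to 934 CPM. The part of these markers in the result was not tested. The median log2 fold change of the 27 genes was 0.59, against -0.00 over all genes.

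By subtype, the KI level of Col5a3 was highest in nuclei of the Sst subtype, the somatostatin cells that contact distal dendrites. There it stood at 0.906 and 0.865 (WT) against 52.2 and 38.2 CPM (KI), over 182, 193, 142 and 208 nuclei. Nuclei of the Pvalb subtype stood at 0.794 and 0 (WT) against 7.40 and 7.84 CPM (KI). Vip nuclei had 0, 1.91, 3.22 and 0 CPM and Lamp5 nuclei 2.13, 0, 1.23 and 3.78 CPM, where the genotypes overlapped. Inhibitory nuclei with no subtype stood at 0.967 and 0 (WT) against 11.5 and 8.68 CPM (KI). Subtypes were set by marker scores of single nuclei and these values were not tested.

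**Figure D5:**
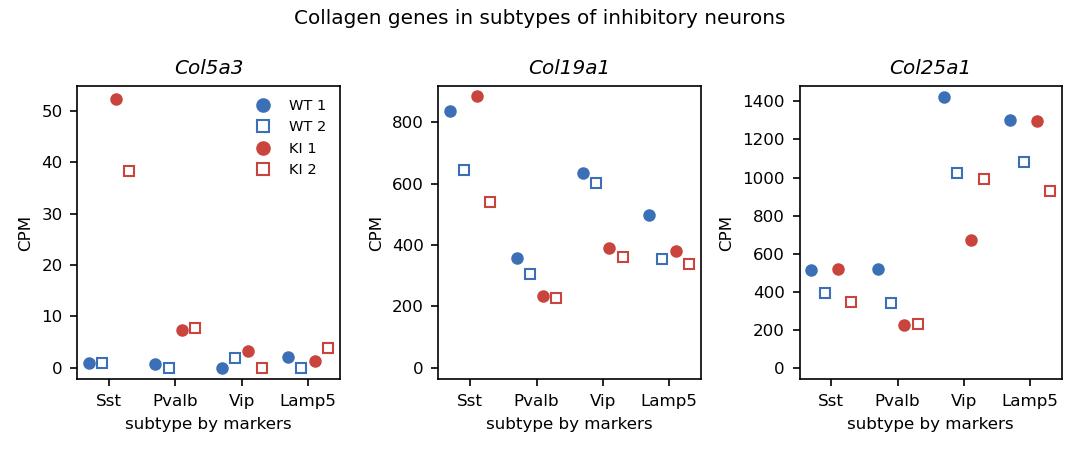
CPM of Col5a3, Col19a1 and Col25a1 in inhibitory nuclei of the Sst, Pvalb, Vip and Lamp5 subtypes, 1 point for each library (WT blue, KI red, replicate 1 filled, replicate 2 open). Col5a3 reaches 52.2 and 38.2 CPM in KI nuclei of the Sst subtype and stays below 8 CPM in the other subtypes.

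In the other 9 classes, 0 collagen genes passed in 82 tests by edgeR, and 0 in the 48 tests for which DESeq2 gave an adjusted p. An unadjusted p under 0.05 by edgeR was met in 20 of the 82 tests (24.4%), against 11% of the tests of all genes. Other settings gave calls in 15 of 106 class and setting pairs, at most 7, in oligodendrocytes without KI replicate 2, where 19.2% of all genes passed. Oligodendrocytes gave 4 with no count filter (3.37% of all genes), as did the subicular or cortical neurons (2.44%). The share of all genes past the threshold there was 1.27% in OPCs, 0.789% in oligodendrocytes, 0.116% in Cajal-Retzius cells, 0.0933% in astrocytes, 0.0623% in fibroblasts and 0 in the subicular or cortical excitatory neurons, COPs, microglia and mural cells. Col1a2, the type I chain of fibroblasts, stood at 206 and 266 (WT) against 215 and 250 CPM (KI) there. In the subicular or cortical excitatory neurons Col4a2 stood at 29.4 and 37.0 (WT) against 61.4 and 68.6 CPM (KI) (log2 fold change 0.98, SE 0.19, adjusted p 0.132). These classes held between 20 and 2115 nuclei in a library.

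Whether the genotype effect differed between DG granule neurons and another class was tested directly, as a class-by-genotype term. It passed for 14 of 30 collagen genes against CA1 pyramidal neurons (13.6% of all 17118 genes), for 5 of 32 against CA3 pyramidal neurons (9.27%) and for 6 of 34 against inhibitory neurons (7.75%). Genes entered these fits when either class was high enough, and 11, 5 and 5 of the called genes had also been tested within both classes. The others were Col18a1 and Col5a3, too low for a test in DG granule neurons, and Col27a1, too low for one in CA1 neurons. Col6a1, Col23a1 and the type V chain Col5a1 differed in all 3 tests. The difference of the log2 fold changes of Col6a1 (DG granule neurons minus the other class) was 5.42 (SE 0.28, adjusted p 3.05e-07) against CA1, 5.27 (SE 0.35, adjusted p 2.07e-06) against CA3 and 2.75 (SE 0.49, adjusted p 0.00621) against inhibitory neurons. Col4a1 and Col4a2 had a smaller effect in DG granule neurons than in CA1 neurons, by -0.74 (SE 0.13, adjusted p 0.00218) and -0.75 (SE 0.12, adjusted p 0.00107). In DG granule neurons themselves Col4a1 had 24.8, 29.7, 44.8 and 24.8 CPM, and the genotypes overlapped.

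Genes that make, bind and cut collagen were read in the same fits. In DG granule neurons, 3 of 14 tested genes of chain modification and folding passed, all lower in KI, and 2 of 11 collagen receptors, both lower, where 9.74% of all genes passed (4.91% lower). Of the 10 tested genes of secretion, propeptide cleavage and cross-linking 2 were higher and 1 lower, of the 11 tested basement membrane and matrix partners 3 were higher and 1 lower, and 0 of 11 matrix metalloproteinases and their inhibitors passed by edgeR. Their median log2 fold changes were -0.17, 0.18, 0.32, 0.84 and 0.03 in this order. In CA1 pyramidal neurons, where 7.64% of all genes passed (4.78% higher), 4 of 11 receptors were called higher although their median was -0.03. The other CA1 lists, in the same order without receptors, had 2 higher and 1 lower of 15, 2 higher of 10, 3 higher of 11 and 0 of 10. In CA3 pyramidal neurons (3.01% of all genes) the receptors had 3 higher of 11 with a median of -0.12, folding 1 higher of 14, secretion 1 lower of 11 and basement membrane partners 2 higher of 11 with a median of 0.83. In inhibitory neurons (1.63%) the receptors had 3 higher of 11 with a median of 0.35 and the other lists 0.

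Colgalt2, which adds galactose to collagen, stood at 12.6 and 15.9 (WT) against 2.50 and 2.26 CPM (KI) in DG granule neurons, a log2 fold change of -2.43. The receptor chain Itga10 fell from 8.51 and 7.67 (WT) to 1.67 and 2.57 CPM (KI) (-1.81), and Antxr2, a receptor of type VI collagen, from 31.0 and 36.9 (WT) to 7.01 and 13.7 CPM (KI) (-1.60). Among the laminin chains, which build basement membranes with type IV collagen, Lama2 rose by 1.33 and Lamb1 fell by 0.90 on the log2 scale. Sparc, which binds collagen, rose by 0.92, and Tll1, which cleaves the propeptide, by 0.67. Adamts3, another propeptide enzyme, fell by 0.87, and P3h3, a prolyl hydroxylase of the chains, by 0.62. Each was called below 0.05 after adjustment over the 16382 genes.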

How the data were processed

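Nuclei of frozen hippocampi were sequenced with 3' droplet chemistry. The matrices deposited by the authors are raw counts of UMIs, from Cell Ranger 7.0.1 per the file headers, on mm10 in the submitters' processing notes. The annotation, the use of intronic reads and the strand setting were not given in the sources used here. Total counts per library were 73009975 to 80913580. Collagen genes, gene lists and class markers were chosen with earlier results of these data known.

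Quality limits were 500 genes as the minimum and 5% mitochondrial UMIs as the maximum. Scrublet (scanpy 1.11.5, expected rate 0.08) scored doublets, and a common maximum score of 0.25, set after the scores were seen, removed 3263 barcodes. Counts scaled to 10000 per nucleus were log-transformed, and the 2000 most variable genes, without collagen and unscaled, were reduced to 30 components. Nuclei were clustered (leidenalg 0.10.2, 20 neighbours, resolution 0.5). A cluster took the class of which at least 3 and at least 60% of the markers were raised 2 times. It stayed unnamed when the median doublet score was above 0.15, when another class had more markers among its leading 10 genes or 90% of its markers raised, or when it was shallow. These limits and a second clustering of mixed clusters were set after clusters had been seen. The study's own cell names were not used, so classes may not match them.

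Raw counts were summed per library and class. The study tested single nuclei; here a mouse is the replicate. The genotypes were tested in edgeR 4.0.16 (under R 4.3.3, with filterByExpr, TMM factors and the quasi-likelihood test), p-values adjusted by Benjamini-Hochberg across every gene fitted, in classes with at least 20 nuclei in every library. SE is the log2 fold change over the square root of F. An exact permutation test of 2 against 2 libraries cannot go below 0.333. The effect of 2 classes was compared by their interaction with genotype, blocked on library. DESeq2 1.42.0, other scaling and filters, other cluster settings, a marker gate per nucleus, the replicate number as a block and each library left out were tried. On simulated data edgeR recovered 78 of 100 genes changed 2-fold over all nuclei (20842 genes run) and 92 of 100 in DG granule neurons (15606 genes run). It also called 9 and 7 unchanged genes. Only genes with an expected count of at least 100 in a library were changed, so recovery at lower counts was not tested.

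Values in single libraries were given for every collagen gene past an adjusted p of 0.05, for the highest class of genes that reach 100 CPM there, and for chains of 1 molecule. Of the gene lists, up to 10 genes past the threshold in DG granule neurons were named, by size, and 1 of them is not reported here. Gene positions follow GENCODE M21 (GRCm38, the assembly behind mm10) and promoter windows RefSeq.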

Additional observations from a re-analysis of the deposited data

Results flagged for a closer look

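The genotype effect of 14 collagen genes differed between DG granule neurons and CA1 pyramidal neurons by the class-by-genotype term. Values are differences of the log2 fold change (KI over WT), DG granule neurons minus the other class. They were above 0 for Col6a1 (5.42), Col27a1 (3.60), Col6a2 (3.50), Col22a1 (2.52), Col5a2 (1.58) and Col11a1 (1.34). They were below 0 for Col5a3 (-3.43), Col5a1 (-2.28), Col18a1 (-2.16), Col23a1 (-1.94), Col19a1 (-1.81), Col25a1 (-0.98), Col4a2 (-0.75) and Col4a1 (-0.74). Against CA3 pyramidal neurons the difference passed for Col6a1 (5.27) and Col12a1 (1.39) above 0, and for Col5a1 (-2.32), Col23a1 (-2.04) and Col25a1 (-1.17) below 0. Against inhibitory neurons it passed for Col6a1 (2.75), Col27a1 (2.19) and Col5a2 (1.04) above 0 and for Col5a3 (-4.60), Col23a1 (-2.57) and Col5a1 (-2.25) below 0. Col18a1 and Col5a3 were too low for a test within DG granule neurons, and Col27a1 within CA1 pyramidal neurons, so their differences rest on a class where few counts were seen. The 3 tests share the DG granule neurons of the same 4 libraries, so that they are not independent. Groups of 2 libraries are too small for a test of single outlying libraries.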

How the results depend on the processing

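The 23 gene and class values past the threshold kept their sign under every alternative that gave a value, and 8 of them also kept an adjusted p below 0.05 throughout: Col6a1 and Col27a1 in DG granule neurons, Col4a1, Col4a2, Col5a3, Col11a1 and Col18a1 in CA1 pyramidal neurons and Col5a3 in inhibitory neurons. The number of collagen genes called moved as follows. DESeq2 called 8 over all nuclei, 0 in mossy cells, 2 in CA3 pyramidal neurons and 1 in inhibitory neurons. Of all genes, 9.53%, 0.673%, 3.04% and 2.13% passed there. With no count filter, inhibitory neurons gave 6, DG granule neurons 14 and all nuclei together 6, beside 4.83%, 13.3% and 2.51% of all genes. Without doublet removal 2 were called in CA3 pyramidal neurons and 1 in inhibitory neurons, beside 2.23% and 1.48% of all genes. Inhibitory neurons also gave 1 with library totals and 1 with nuclei of at least 1000 genes, beside 1.45% and 1.24% of all genes. Without doublet removal mossy cells gave no value. The gate per nucleus gave 0 in mossy cells, 1 in CA3 pyramidal neurons and 1 in inhibitory neurons. Of all genes, 0.0162%, 1.60% and 0.765% passed under this gate. With single libraries left out, counts ranged from 0 to 11 over all nuclei, 2 to 15 in DG granule neurons, 0 to 1 in mossy cells, 6 to 12 in CA1 pyramidal neurons, 1 to 13 in CA3 pyramidal neurons and 1 to 10 in inhibitory neurons, where the lone library of a genotype was assumed to vary like the others. The counts of 11 and 15 came without KI replicate 2, where 32.4% (all nuclei) and 45.2% (DG granule neurons) of all genes passed. The cause of these moves was not tested.

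With the replicate number as a block, calls numbered 8 (all nuclei), 14 (DG granule neurons) and 6 (inhibitory neurons), where 9%, 17.9% and 9.24% of all genes passed. The labels give no pairing, and the deviations of libraries with the same number correlated at 0.03, -0.03 and -0.04 (all nuclei, then DG granule and CA1 pyramidal neurons). Library totals in place of TMM factors shifted the median of all genes in DG granule neurons by -0.14, and 33.4% rather than 49.5% of all calls were then higher in KI (49.6% rather than 62.6% in CA1 and 50.3% rather than 64.2% in CA3 pyramidal neurons, 45.9% rather than 68.1% in inhibitory neurons and 39.9% rather than 63.2% in mossy cells).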

Other observations

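Classes that were too small to test held further collagen genes. Endothelial cells, with 14 to 36 nuclei in a library, had 95.3 and 344 CPM of Col4a1 in WT and 479 and 274 CPM in KI. Their Col4a2 stood at 171, 162, 369 and 103 CPM. Ependymal cells, with 3 to 16 nuclei, had 90.9 and 107 CPM of Col5a3 in WT and 171 and 191 CPM in KI, on 3 to 16 UMIs. The few choroid plexus nuclei had 10, 4 and 4 UMIs of Col9a3 in the 3 libraries that held any.

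Clusters without a class held some collagen genes at a high level. The cluster led by 2600014E21Rik had 104 and 114 CPM of Col6a1 in WT and 103 and 79.2 CPM in KI, which no tested class reached on average. The cluster led by Hmcn1 had 58.1 and 53.2 CPM of Col4a1 in WT and 146 and 123 CPM in KI, and 44.8 and 59.0 CPM of Col4a2 in WT and 131 and 163 CPM in KI. In the cluster led by Npsr1, Col23a1 stood at 233, 172, 182 and 124 CPM. These values were not tested.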
